A study of Rattus norvegicus with 24 samples.

Results

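Gene expression in the heart septum was compared between rats with ablation of brown adipose tissue (BAT) and rats with intact BAT, all infused with leptin. The members are the 6 libraries of BAT ablation with leptin and the 6 libraries of intact BAT with leptin, chosen by their group labels, or 12 of the 24 libraries of the series. All were Sprague-Dawley rats sampled on day 28 after cardiac ischemia-reperfusion, and both groups received leptin through a cannula in the cerebral ventricles. The groups not compared here directly, 6 rats each, were intact BAT with vehicle and sympathetic denervation of BAT with leptin. No rat with ablation received vehicle, so an effect of ablation alone and an effect of ablation on the response to leptin cannot be told apart. How BAT was ablated, and the age and sex of the rats, are not given in the sources used here. Every library is from 1 rat with a number of its own in the labels, so p-values measure the spread between rats.

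Brown adipose tissue burns fatty acids and glucose to make heat, works under sympathetic control and releases signals into the blood. Leptin is a hormone of fat cells that acts on hypothalamic neurons and raises sympathetic outflow, including that to BAT. The septum is the muscular wall between the chambers of the heart, and its bulk RNA mixes cardiomyocytes with fibroblasts, vessel cells and immune cells. In such libraries, fewer cells of a type and less RNA per cell cannot be told apart.

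The 12 libraries held 77894258 to 116014435 assigned reads, and 17347 of 30562 annotated genes passed the filter on low counts. Genes carry Ensembl IDs that could not be paired with symbols, so they are given by position on mRatBN7.2 and by structure, with 4 IDs, and the septum label could not be checked against marker genes. Levels are CPM, the reads of a gene scaled to a common library size (TMM), with mean ± SD over 6 rats where both are given. In the labels the intact BAT rats are Rat56, Rat60, Rat61, Rat62, Rat120 and Rat196, and the ablation rats are Rat95, Rat148, Rat152, Rat157, Rat164 and Rat186. Across the series, libraries of rats from Rat168 upward stand apart from the rest, and each group compared holds 1 of them. Genes of the Y chromosome, read in all 24 rats, are an example. They took 109 to 134 CPM in the 7 rats from Rat168 upward and 49.5 to 76.0 CPM in the other 17. A second fit therefore had a 2-level rat-number term, Rat168 and above against below. The intact BAT rats Rat56 to Rat62 have lower numbers than all ablation rats, and for them rat number and group cannot be told apart.

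After ablation 323 genes were higher and 202 lower than with intact BAT (edgeR quasi-likelihood test over all genes, adjusted p below 0.05). These are 1.86% and 1.16% of the genes tested, or 3.03% together, and 3118 genes had an unadjusted p below 0.05. The higher genes had a median log2 difference of 0.97, the lower genes one of -0.77, and all tested genes one of -0.02. The balance of higher to lower calls, 61.5% higher here, moved with the model. It was 70.4% with upper-quartile scaling (321 of 456 calls), 1473 to 1549 (48.7%) by limma-voom, and 624 to 671 (48.2%) with a rat-number term, described above, and a term for the length gradient of each library. Differences were mostly modest. Among the 525 called genes the fold was below 1.5 in 90, from 1.5 to 2 in 233, from 2 to 4 in 183 and 4 or more in 19. Of the genes that differed by a fold of 2 or more, 151 were higher and 51 lower. The 6 ablation libraries and the 6 intact BAT libraries did not overlap in 62 of the higher and 51 of the lower genes. Over all 17347 genes they did not overlap in 158 (0.911%), with ablation above in 86 (0.496%) and below in 72 (0.415%). Calling and separation use the same libraries, so the first counts are a description.

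With the rat-number term 3219 genes were called (18.6%), 1673 higher (9.64%) and 1546 lower (8.91%), and they included all 525. Among rats below Rat168, with 5 rats per group compared, 2033 of 17890 genes were called (11.4%), 1081 higher (6.04%) and 952 lower (5.32%), and 498 of the 525 were among them. That fit also held the vehicle and denervated rats below Rat168, and in the 2 groups compared alone these rats gave 0 calls by edgeR (4408 genes at an unadjusted p below 0.05). The fit with the term and that of the rats below Rat168 reuse libraries that chose the 525, so the shared calls are a description. The counts depended on which libraries entered the model. When only the 12 libraries compared were fitted, 0 genes passed by edgeR, while 2344 had an unadjusted p below 0.05. That fit estimates the spread from these 2 groups alone. The spread of a gene within a group, as the median SD of log2 CPM over the genes tested, was 0.51 after ablation, 0.60 with intact BAT, 0.52 with vehicle and 0.51 after denervation.

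Named genes are the 2 higher and the 2 lower genes of smallest p whose mean reached 1 CPM. The small p favours groups that separate, and the separation is no independent support.

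ENSRNOG00000008676 was higher after ablation by a fold of 3.38. It lies on the plus strand of chromosome 4 (168212861 to 168232904), with 7 exon blocks, which are exons merged where they overlap, and 2624 exonic bases. Intact BAT rats ranged from 44.1 to 149 CPM, with a median of 81.4 CPM, and ablation rats from 150.3 to 387 CPM, with a median of 321 CPM. The groups did not overlap, but intact BAT Rat120 (149 CPM) and ablation Rat164 (150.3 CPM) nearly met. The log2 difference was 1.76 ± 0.26 (SE, edgeR adjusted p = 0.00828) and 1.75 ± 0.25 with the rat-number term (edgeR adjusted p = 0.000737). In the single pair of rats from Rat168 upward, ablation Rat186 had 353 CPM and intact BAT Rat196 had 69.4 CPM. Vehicle rats had 221 ± 43.6 CPM and denervated rats 230 ± 39.5 CPM, both between the groups compared. The ablation level did not differ from either at the threshold, by log2 differences of 0.41 ± 0.25 (SE, edgeR adjusted p = 0.487) and 0.35 ± 0.25 (edgeR adjusted p = 0.890).

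ENSRNOG00000016758 rose by a fold of 2.97. It lies on the plus strand of chromosome 15 (44683880 to 44773067), with 15 exon blocks and 4959 exonic bases. Its level ran from 21.0 CPM in Rat196 to 55.8 CPM in Rat120 with intact BAT, with a median of 37.4 CPM. After ablation it ran from 63.0 CPM in Rat164 to 174 CPM in Rat152, with a median of 97.7 CPM. Every ablation rat therefore stood above every intact BAT rat, and the groups were 1.57 ± 0.24 apart in log2 (SE, edgeR adjusted p = 0.00828), or 1.58 ± 0.23 with the rat-number term (edgeR adjusted p = 0.000929). Vehicle rats had 73.7 ± 14.4 CPM and denervated rats 62.9 ± 11.3 CPM. The ablation mean of 110 ± 38.9 CPM was above both, by log2 differences of 0.58 ± 0.24 against vehicle and 0.81 ± 0.24 against denervation, neither of which passed (edgeR adjusted p = 0.457 and 0.890).

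ENSRNOG00000007069 fell by 1.18 on the log2 scale (SE 0.18, edgeR adjusted p = 0.00828), a 2.27-fold lower level. It lies on the minus strand of chromosome 5 (9705970 to 9732517), with 14 exon blocks and 1907 exonic bases. Intact BAT rats ranged from 42.4 CPM in Rat62 to 74.3 CPM in Rat196, with a median of 62.9 CPM. Ablation rats ranged from 16.8 CPM in Rat152 to 33.8 CPM in Rat164, with a median of 28.2 CPM, all below the intact BAT rats. With the rat-number term the log2 difference was -1.18 ± 0.16 (SE, edgeR adjusted p = 0.000737). Vehicle rats had 38.3 ± 7.56 CPM and denervated rats 33.5 ± 3.80 CPM, against 26.2 ± 6.70 CPM after ablation. The ablation level was lower than with vehicle by a log2 difference of -0.55 ± 0.18 and than after denervation by -0.35 ± 0.18, and neither passed (edgeR adjusted p = 0.457 and 0.890).

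ENSRNOG00000019615 fell by a fold of 2.51. It lies on the minus strand of chromosome 16 (6731858 to 6787107), with 18 exon blocks and 3085 exonic bases. Intact BAT rats had 35.9 to 83.6 CPM, with a median of 67.3 CPM, and ablation rats 15.1 to 39.9 CPM, with a median of 26.3 CPM. The groups overlapped through intact BAT Rat120 (35.9 CPM) and ablation Rat157 (39.9 CPM). The log2 difference was -1.33 ± 0.22 (SE, edgeR adjusted p = 0.0111) and -1.33 ± 0.21 with the term (edgeR adjusted p = 0.00121). Ablation rats, at 26 ± 9.78 CPM, were close to vehicle rats, at 25.4 ± 4.34 CPM, with a log2 difference of 0.03 ± 0.21 (edgeR adjusted p = 0.945). Denervated rats had 34.5 ± 4.45 CPM, and the ablation level differed from theirs by -0.41 ± 0.22 on the log2 scale (edgeR adjusted p = 0.890).

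**Figure D1:**
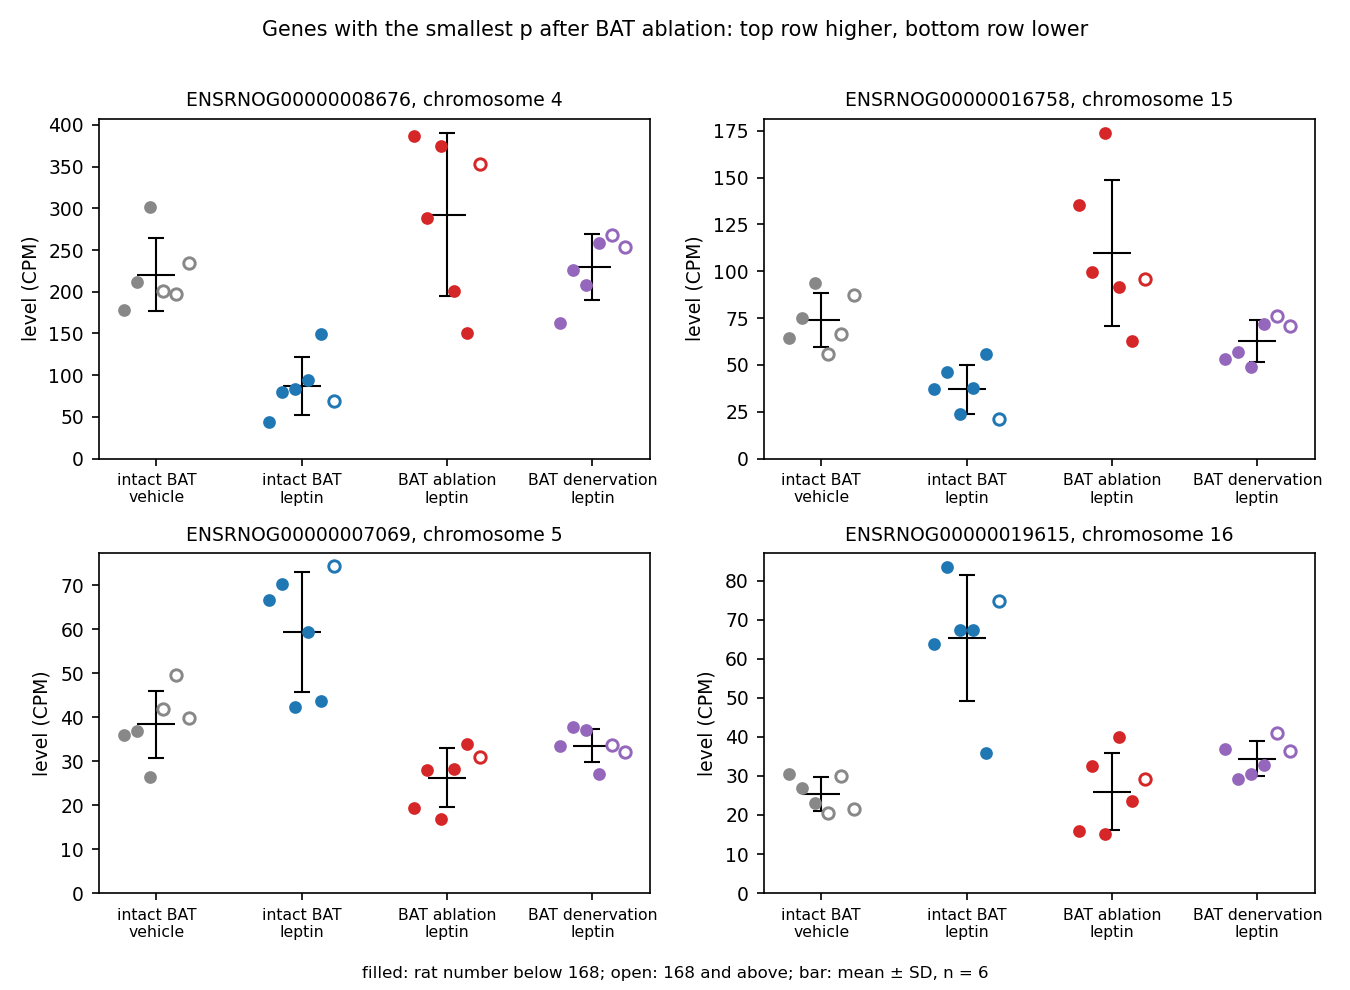
Level in CPM of the 4 named genes in each of the 24 rats, by group, with filled points for rats below Rat168, open points for Rat168 and above, and bars for the mean ± SD of 6 rats. In the top row ablation rats stand above intact BAT rats with leptin. In the bottom row they stand below them, except that ablation Rat157 lies above intact BAT Rat120 in ENSRNOG00000019615. The vehicle and denervation groups lie near or between the groups compared.

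No other annotated gene overlapped these 4 genes. Their calls held in each of 12 fits that left out 1 of the 12 libraries, with the highest adjusted p at 0.0413, 0.0413, 0.0423 and 0.043 in the order above. All 4 calls were lost when only the 12 libraries compared were fitted (edgeR adjusted p = 0.214 for each), and without ablation Rat95 and Rat152 (edgeR adjusted p = 0.143 for each). Leaving out intact BAT Rat56 to Rat62 left only Rat120 and Rat196 in that group. With the rat-number term the edgeR adjusted p of the 4 genes was then 0.106 to 0.183, and their log2 differences were 1.42, 1.497, -1.05 and -0.99. Without the term the differences were 1.42, 1.52, -1.17 and -1.09, and that fit called 1 gene of all tested. Over all alternatives the highest edgeR adjusted p was 0.452, 0.429, 0.249 and 0.464 in the same order.

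Of the 525 called genes, 6 kept the call in all 12 of these fits, 4 higher and 2 lower. Besides the 4 named genes, they were a gene on chromosome 4 (76803198 to 76822107) and one on chromosome 6 (87840142 to 87874114). The chromosome 4 gene had 27.6 ± 7.34 CPM with intact BAT and 60.3 ± 16.2 CPM after ablation, 1.13 ± 0.18 apart in log2 (SE, edgeR adjusted p = 0.0111). The chromosome 6 gene had 42.9 ± 5.49 CPM with intact BAT and 66.2 ± 6.55 CPM after ablation, a log2 difference of 0.63 ± 0.11 (edgeR adjusted p = 0.0129). These 2 genes were singled out after their values were seen. With the rat-number term, 518 of the 525 kept the call in all 12 fits, 317 higher and 201 lower. Every one of the 525 kept its direction in every fit that left out 1 library. The 525 were chosen in these same libraries, and all 525 were called with the term, so kept calls and directions are a description.

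As designed, the count rested on 4 libraries above all. It was 8 without ablation Rat95, 7 without ablation Rat152, 11 without intact BAT Rat60 and 41 without intact BAT Rat61. It was between 138 and 236 without ablation Rat148, intact BAT Rat56 or intact BAT Rat62. Leaving out the rats that lay nearest the other group raised it, to 808 without intact BAT Rat120, 840 without ablation Rat157 and 975 without ablation Rat164. Without intact BAT Rat196 it was 1037 and without ablation Rat186 it was 373. With the rat-number term the same 12 fits called 1652 to 4303 genes.

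**Figure D2:**
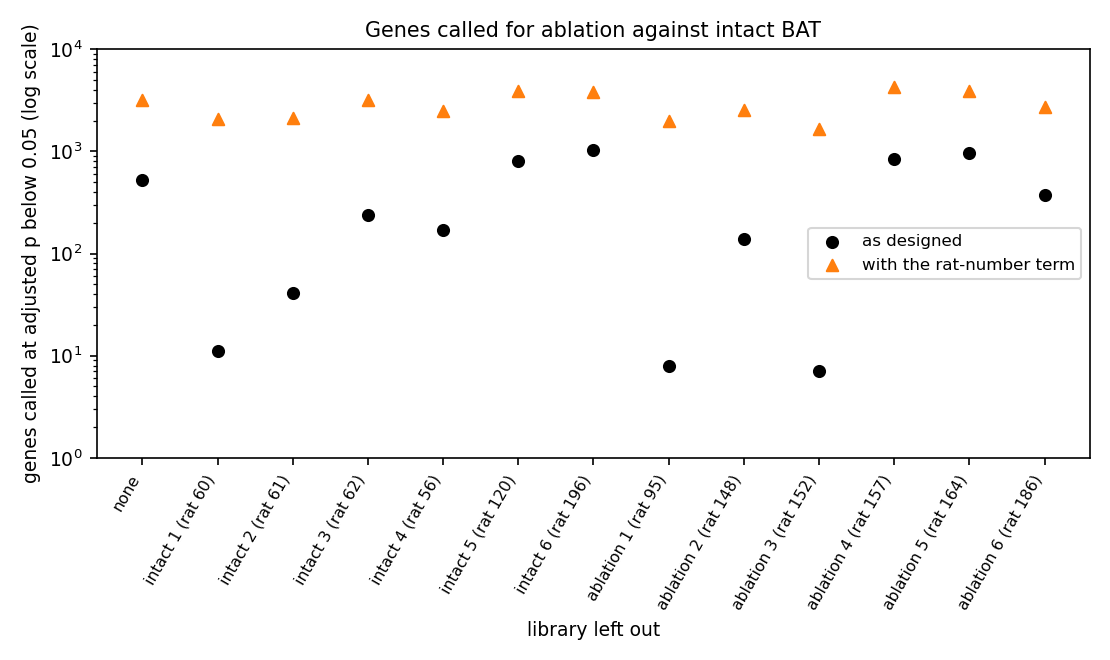
Number of genes called for ablation against intact BAT (log axis) when none or 1 of the 12 libraries was left out, as designed (circles) and with the 2-level rat-number term (triangles). As designed the count ran from 7 to 1037 around 525, and with the term from 1652 to 4303 around 3219.

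The rats of both groups were spread unevenly over the called genes. For each rat the median log2 CPM over the 323 higher genes was taken relative to the mean of the 12 libraries. Ablation Rat152 and Rat95 stood highest, at 0.93 and 0.81, Rat148 and Rat186 at 0.40 and 0.38, Rat157 at 0.17 and Rat164 at -0.08. Rat164 was thus below intact BAT Rat120, at -0.03, while the other intact BAT rats lay from -0.71 (Rat60) to -0.37 (Rat56). Of the higher genes, 180 had their highest level among the 12 in ablation Rat152 and 97 in ablation Rat95. Over the 202 lower genes, ablation Rat152 and Rat95 were again farthest, at -0.69 and -0.55, and 100 and 40 of these genes had their lowest level in them. The genes were chosen by these groups, so the separation is a description.

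Vehicle and denervated rats took no part in the contrast that chose the genes, although they share its estimate of the spread. Over the 323 higher genes vehicle rats lay from 0.04 to 0.40 and denervated rats from 0.06 to 0.28, above the mean of the 12 libraries. Over the 202 lower genes vehicle rats lay from -0.39 to -0.14 and denervated rats from -0.26 to 0.0016. All 12 of these rats lay within the range of the ablation rats in both sets, except denervated Rat53 over the lower genes.

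**Figure D3:**
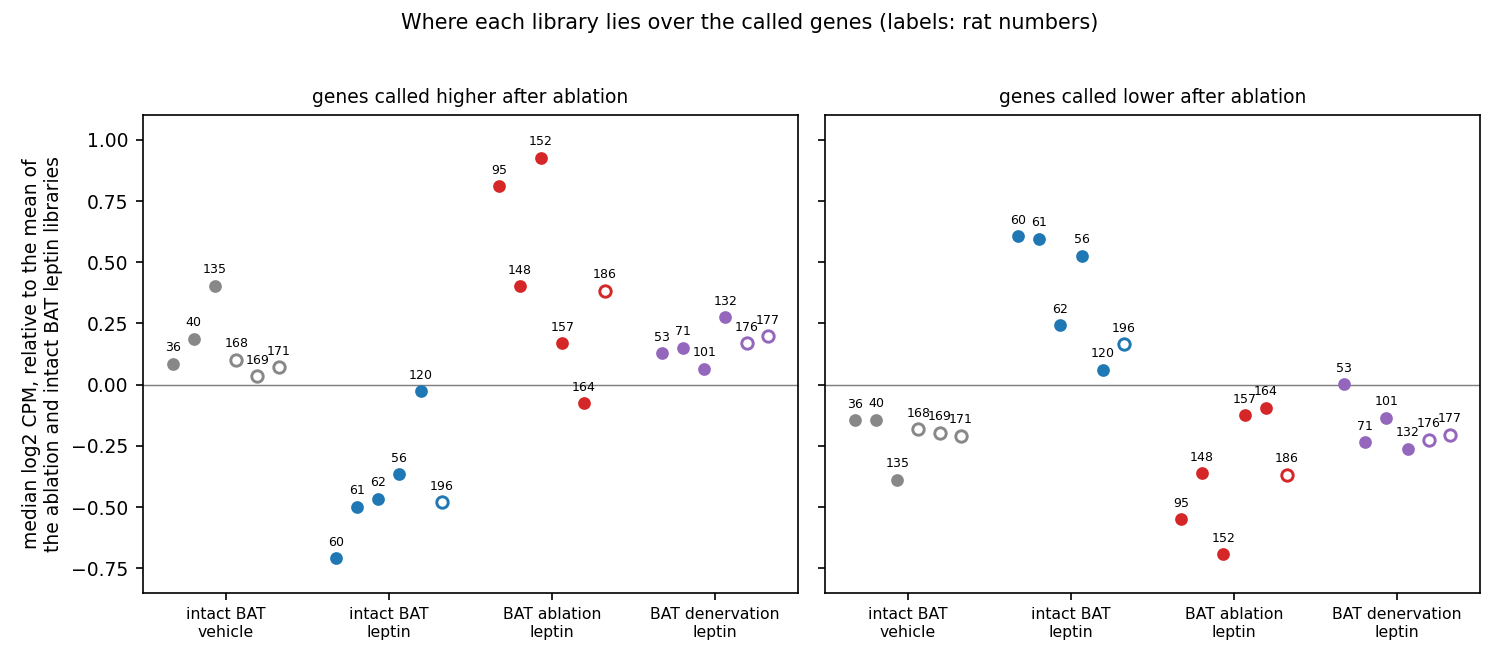
Median log2 CPM of each of the 24 rats over the 323 genes called higher (left) and the 202 called lower (right), relative to the mean of the ablation and intact BAT libraries with leptin, labelled by rat number (open points, Rat168 and above). Ablation Rat95 and Rat152 lie farthest from the intact BAT rats, while Rat164 and Rat120 lie nearest each other.

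Rat186 and Rat196, 1 in each group, allowed a look at the calls of the low-numbered rats in libraries that had no part in them. Those calls come from the fit with vehicle and denervated rats, since the low-numbered rats of the 2 groups alone gave 0. Of 1079 genes called higher in rats below Rat168, 799 (74.1%) were higher in ablation Rat186 than in intact BAT Rat196, against 48.2% of all 17304 genes tested in both fits. Of 951 genes called lower, 707 (74.3%) were lower in Rat186, against 51.3% of all genes. The median log2 difference of this pair was 0.37 for the higher genes, -0.26 for the lower genes and -0.02 for all. It is 1 rat per group and has no replicate check.

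**Figure D4:**
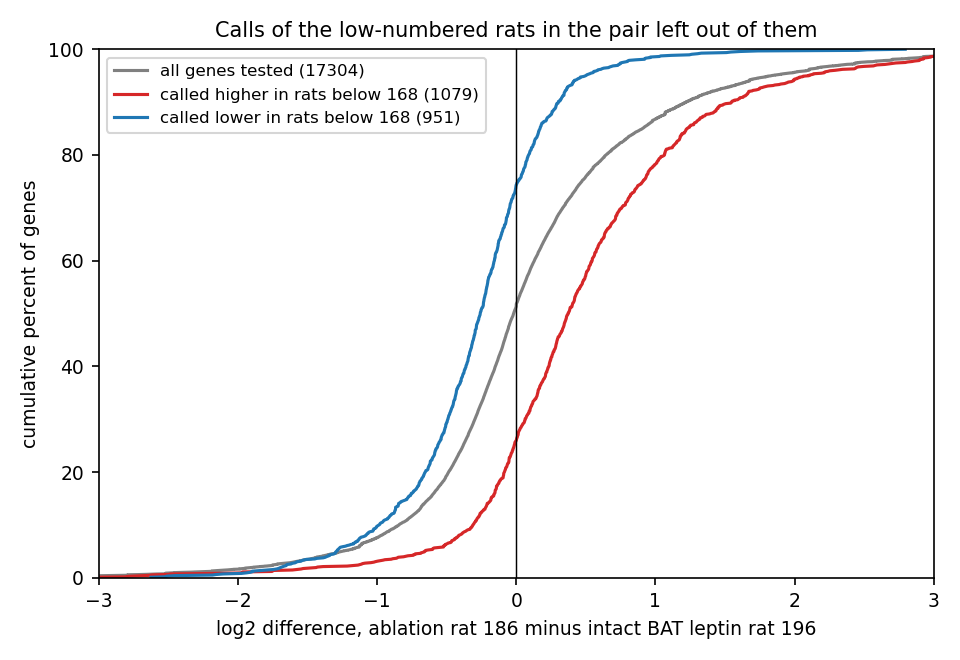
Cumulative percent of genes by the log2 difference between ablation Rat186 and intact BAT Rat196, for genes called higher (1079) or lower (951) in the rats below Rat168 and for all 17304 genes. The higher genes lie to the right of all genes (median 0.37 against -0.02) and most of the lower genes to the left (median -0.26).

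The 10 higher genes with the largest differences, among those called in both fits with a mean of at least 1 CPM, rose by log2 differences of 2.01 to 4.71. In all 10 the groups overlapped, and ablation Rat95 was the highest of the ablation rats in 7 of them and Rat152 in 2. The largest difference, on chromosome 11 (69431260 to 69452305), rested on Rat95. That rat had 49.7 CPM, the other ablation rats 0.316 to 1.13 CPM and the intact BAT rats 0.0986 to 0.498 CPM. Without Rat95 its log2 difference was 0.90 (edgeR adjusted p = 0.617) in place of 4.71 ± 1.21 (SE, edgeR adjusted p = 0.0381), and 1.12 with the rat-number term (edgeR adjusted p = 0.203). On chromosome 13 (83570811 to 83576679) the log2 difference was 3.02, with 66.9 CPM in Rat95, 3.26 to 12.5 CPM in the other ablation rats and 0.0986 to 3.65 CPM with intact BAT. Without Rat95 it was 1.61 (edgeR adjusted p = 0.244), and 1.86 with the rat-number term (edgeR adjusted p = 0.0207). Genes on chromosome 7 (85566520 to 85594538), chromosome 18 (75855878 to 75966404) and chromosome 3 (88889046 to 88988606) also moved by more than a fold of 1.5 without Rat95, from 2.05, 2.03 and 2.01 to 1.43, 1.18 and 1.18.

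In the other 5 of these genes the rise was less tied to Rat95. A gene on chromosome 18 (54364088 to 54371767) had 1.54 to 24.0 CPM after ablation, with a median of 5.86 CPM, and 0.370 to 4.59 CPM with intact BAT, with a median of 0.878 CPM. Its log2 difference of 2.78 ± 0.69 (SE, edgeR adjusted p = 0.0326) was 3.66 without intact BAT Rat120, which held the 4.59 CPM. A gene on chromosome 2 (59917188 to 59939433) had a median of 3.41 CPM after ablation against 0.797 CPM with intact BAT. On the X chromosome (131868990 to 132236798) ablation Rat95 and Rat152 had 37.0 and 30.2 CPM and the other 10 rats 2.06 to 6.20 CPM. A gene of 28 exon blocks on chromosome 5 (77375851 to 77460624) had 2.24 to 18.3 CPM after ablation against 0.173 to 3.13 CPM with intact BAT. A gene of 41 exon blocks on chromosome 9 (2087437 to 2114429) was highest in Rat152, at 42.1 CPM, and its log2 difference of 2.01 was 1.404 without that rat (edgeR adjusted p = 0.13).

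The 10 lower genes with the largest differences fell by log2 differences between -1.89 and -1.43, and none moved by more than a fold of 1.5 when a library was left out. Without intact BAT Rat56 to Rat62 and with no rat-number term, the differences of these 10 genes were -1.33 to -0.50. The smallest was on chromosome 4 (124271456), in place of -1.46. In that fit 0 of the 20 genes of largest difference, higher and lower, kept their call, and 9 moved by more than a fold of 1.5. With the term 0 kept their call and 7 moved so. On chromosome 7 (12010852 to 12022046) a gene had 2.56 to 6.67 CPM after ablation against 7.18 to 22.8 CPM with intact BAT, with no overlap, -1.82 ± 0.34 apart in log2 (SE, edgeR adjusted p = 0.0161). On chromosome 18 (63541896 to 63584119) a gene had 0.480 to 1.63 CPM after ablation against 1.70 to 3.85 CPM with intact BAT, also with no overlap. In the other 8 the groups overlapped. A gene of 40 exon blocks on chromosome 15 (28979007 to 28996225) had a median of 14.0 CPM after ablation against 46.4 CPM with intact BAT, where Rat120, at 24.5 CPM, was below ablation Rat164, at 28.1 CPM. On chromosome 2 (195231197 to 195241609) the level was 0.138 to 2.22 CPM after ablation against 1.83 to 4.98 CPM with intact BAT.

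The other 6 lower genes lie on chromosomes 10 (14807710 to 14812282), 18 (27239001 to 27241094), 4 (124271456 to 124321268), 3 (141429444 to 141475865), 12 (35013682 to 35014869) and X (115565267 to 115598809). Their log2 differences were -1.87, -1.58, -1.46, -1.46, -1.44 and -1.43. The X chromosome gene was narrow after ablation, at 1.24 to 1.97 CPM, and wide with intact BAT, at 1.78 to 7.00 CPM. Without a rat-number term, 0 of the 20 genes kept their call without ablation Rat95, ablation Rat152 or intact BAT Rat60. With the term 19 of 20 kept it in all 12 fits that left out a library, as did 518 of all 525 called genes. The 20 were chosen among genes called with the term in these same libraries, so this is a description and no support. With the term and a length gradient of each library (long against short genes) in the model, 8 of the 10 higher genes lost their call (edgeR adjusted p = 0.0526 to 0.227), while the 10 lower genes kept theirs. The chromosome 11 difference was then 2.28 in log2 and that of the chromosome 18 gene at 75855878 was 1.26. Upper-quartile scaling ended 7 of the 20 calls, 4 higher and 3 lower (edgeR adjusted p = 0.0507 to 0.0753).

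Ablation was also set against the groups that the contrast did not use. Between ablation with leptin and intact BAT with vehicle, 0 of 17347 genes passed by edgeR, also with the rat-number term, while 1892 had an unadjusted p below 0.05. The count depended on the tool, with 21 genes by DESeq2 and 9663 by limma-voom with sample weights. Between ablation and denervation, both with leptin, 0 genes passed by edgeR with or without the term, 0 by DESeq2 and 54 by limma-voom, while edgeR gave 778 an unadjusted p below 0.05. None of the 20 genes of largest difference passed in either comparison by edgeR. These comparisons share the ablation libraries with the one above. The chromosome 18 gene at 54364088 had medians of 5.86 CPM after ablation, 1.99 CPM with vehicle and 2.05 CPM after denervation. The lower gene on chromosome 18 at 27239001 had medians of 1.75, 1.51 and 1.09 CPM in the same order, against 4.97 CPM in intact BAT rats with leptin.

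The direction of the calls differed with the number of exon blocks of a gene, a property looked at after the calls were seen. Over all genes 1.86% were higher and 1.16% lower. Among 1138 genes of 1 exon block, 13 were higher (1.14%) and 1 lower (0.0879%), and among 2274 genes of 2 to 3 blocks 30 were higher (1.32%) and 5 lower (0.22%). Among 6865 genes of 4 to 10 blocks, 179 were higher (2.61%) and 62 lower (0.903%). Among 4619 genes of 11 to 20 blocks the balance turned, with 65 higher (1.41%) and 77 lower (1.67%), and among 2451 genes of more than 20 blocks 36 were higher (1.47%) and 57 lower (2.33%). The median log2 difference over these classes was 0.10, 0.04, 0.05, -0.09 and -0.18. With the rat-number term it was 0.12, 0.07, 0.07, -0.07 and -0.16.

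The same turn was present within classes of exonic length. Genes of 4 to 10 exon blocks had 62 higher and 20 lower calls at up to 2000 exonic bases, 88 and 27 between 2000 and 4000, and 29 and 15 above 4000. Genes of more than 10 blocks had 8 higher and 18 lower calls at up to 2000 bases, 41 and 55 between 2000 and 4000, and 52 and 61 above 4000. Lower calls therefore outnumbered higher ones in each length class above 10 blocks, and higher calls outnumbered lower ones in each at 4 to 10. Over all genes the balance was 323 higher to 202 lower.

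**Figure D5:**
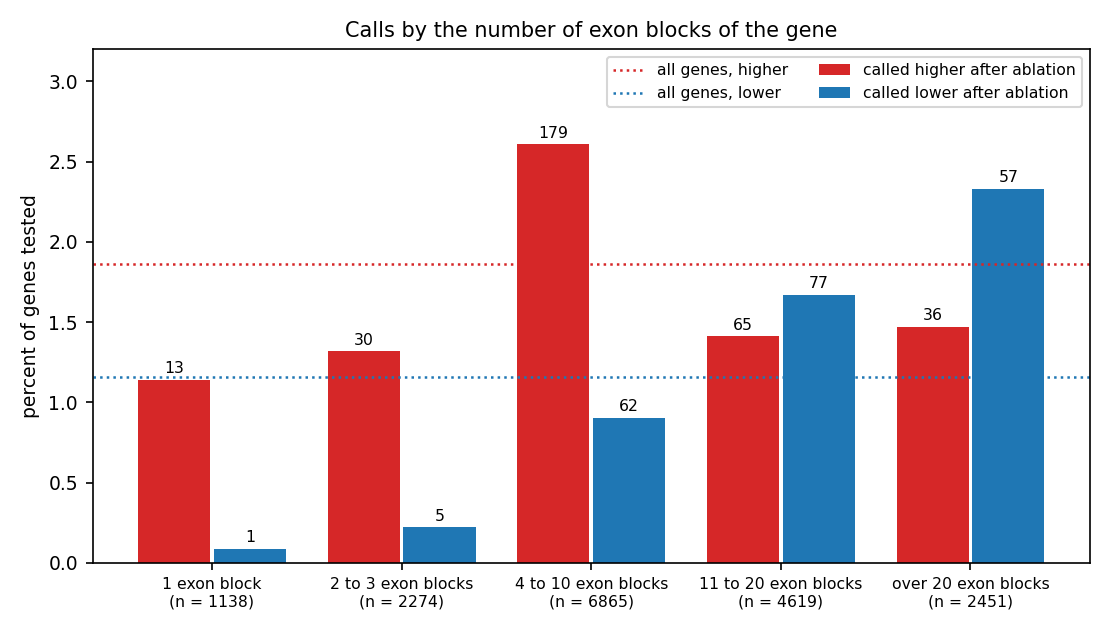
Percent of tested genes called higher (red) or lower (blue) after ablation, by the number of exon blocks, with the number of called genes above each bar and dotted lines for all genes (1.86% and 1.16%). Higher calls outnumber lower calls up to 10 exon blocks, and lower calls outnumber higher calls above 10.

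Taken by rat, the gradient was less firm. For each rat it is the median centred log2 CPM of genes with more than 10 exon blocks minus that of genes with up to 3. It was -0.09 ± 0.14 (SD, n = 6) after ablation and 0.10 ± 0.20 (SD, n = 6) with intact BAT, a difference of -0.20 (exact permutation p = 0.0714, two-sided). The groups overlapped, from -0.23 (Rat152) to 0.11 (Rat157) after ablation and from -0.14 (Rat62) to 0.41 (Rat60) with intact BAT. Against genes of 4 to 10 blocks the difference was -0.18 (exact permutation p = 0.0368), and adjusted over both definitions p was 0.0714 for each. Among rats below Rat168 the difference was -0.23 (exact permutation p = 0.0556, n = 5 per group). Leaving out 1 rat moved p between 0.0346 (without intact BAT Rat62) and 0.160 (without intact BAT Rat60). The part of RNA quality in this gradient was not tested.

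Called genes were found on every autosome and on X. The share called higher ran from 1.00% on chromosome 19 to 2.74% on chromosome 14, against 1.86% of all genes. The share called lower ran from 0.609% on chromosome 17 to 1.87% on chromosome 9, against 1.16% of all genes. Differences between chromosomes, and between the classes that follow, were not tested. By level, 16 genes were higher (0.403%) and 3 lower (0.0755%) of 3972 under 1 CPM. At 1 to 10 CPM 85 (1.8%) and 29 (0.615%) of 4716 were, and at 10 to 100 CPM 178 (2.41%) and 131 (1.77%) of 7401. At 100 CPM and over it was 44 (3.5%) and 39 (3.1%) of 1258. Of the 5057 tested genes that overlap another annotated gene, 73 were higher (1.44%) and 63 lower (1.25%), and of the 12290 others 250 (2.03%) and 139 (1.13%). Reads were counted without strand, so reads in bases that genes on opposite strands share cannot be told apart.

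Of 17313 pairs of neighbouring tested genes, 14 were called higher in both (0.0809%), 5 lower in both (0.0289%) and 3 in opposite directions. Of the 646 neighbours of higher genes 4.33% were higher too, against 1.86% of all genes, and of the 403 neighbours of lower genes 2.48% were lower too, against 1.16%. These shares rest on 19 pairs and were not tested. In 16 of the 19 the genes do not overlap. On chromosome 9 (1158752 to 1306947) genes of 22 and 38 exon blocks on opposite strands, which do not overlap, were both lower. The first had 115 ± 21.5 CPM with intact BAT and 65.8 ± 13.6 CPM after ablation, -0.80 ± 0.19 apart in log2 (SE, edgeR adjusted p = 0.0269). The second had 323 ± 77.1 CPM and 164.3 ± 65.2 CPM, a log2 difference of -0.98 ± 0.24 (edgeR adjusted p = 0.0302). In vehicle rats they stood at 65.4 ± 16.0 and 153 ± 36.2 CPM, close to the ablation levels.

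On chromosome 16 (78047602 to 78294412) genes of 49 and 53 exon blocks on opposite strands, which share 307 bases at their ends, were both higher. The first had 324 ± 87.4 CPM with intact BAT and 610 ± 108 CPM after ablation, 0.91 ± 0.22 apart in log2 (SE, edgeR adjusted p = 0.0318). The second had 396 ± 162 CPM and 769.5 ± 124 CPM, a log2 difference of 0.96 ± 0.26 (edgeR adjusted p = 0.0483). Every ablation rat was above every intact BAT rat in both, and vehicle rats had 578 ± 179 and 748 ± 232 CPM. On chromosome 8 (45563137 to 45705958) genes of 7 and 8 exon blocks that do not overlap were higher, by log2 differences of 1.23 ± 0.23 and 1.12 ± 0.26. As designed, the genes of these 3 pairs kept their call in 3 to 9 of the 12 fits that left out a library, and in all 12 with the rat-number term.

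Mitochondrial genes, which encode subunits of the respiratory chain, the RNAs of the mitochondrial ribosome and short transfer RNAs, were not among the called genes. Of 22 tested, edgeR called 0, also with the rat-number term, and 2 had an unadjusted p below 0.05, both shorter than 200 bases and at a mean below 2 CPM. DESeq2 called 1 of the 22 and limma-voom 0. Over all genes edgeR called 3.03%, and 18.6% with the term, and 3118 of 17347 had an unadjusted p below 0.05. At a share of 3.03%, 0 of 22 as designed is no result about these genes. The 15 genes longer than 200 bases had log2 differences from -0.37 to 0.07 with a median of -0.04, and 10 of them were below 0. The smallest adjusted p among them was 0.619. Mitochondrial reads made up 23.1% to 45.9% of a library after ablation, with a median of 35%, and 24.4% to 41.1% with intact BAT, with a median of 33.6%.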

How the data were processed

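Paired-end mRNA sequencing of heart septum covered 24 rats (per the labels' protocols). The authors deposited whole-number read counts for 30562 genes. Per the file header they were made with featureCounts 2.0.6 in paired mode on the Ensembl 113 annotation of mRatBN7.2, with no strand, multimapping or read-pair option. The submitters' processing notes name STAR 2.7.10a, featureCounts 2.0.2, DESeq2 and R 4.4.1. Even values are in excess (19013 cells of the table hold a 2 and 5161 a 1), a sign of mates counted singly, so totals are reads and not fragments. Of 29 count columns, 5 match no listed sample and were not used here. No 2 libraries were identical.

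The deposited counts were filtered with filterByExpr of edgeR 4.0.16, normalised by TMM and fitted with its robust quasi-likelihood model (R 4.3.3) on all 24 libraries, in which the spread was pooled over the 4 groups, with Benjamini-Hochberg adjustment at 0.05. Standard errors come from the quasi-likelihood F statistic. Library medians and gradients used log2 CPM (prior count 2) computed from the deposited counts. Alternatives were a 2-level rat-number term, other terms and subsets, DESeq2 1.42.0, limma 3.58.1 (voom with sample weights), sva 3.50.0, other scalings, filters and thresholds, and each library left out. The model was tested on simulated data. The members, lists and tests were chosen with earlier results of these data known.

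A symbol was found for 0 of the IDs, so the gene lists, marker lists and the symbol condition for named genes were not used here. In their place 2 higher and 2 lower genes of smallest p whose mean reached 1 CPM are given by ID (the rule had allowed for 3 in each direction). The 10 higher and 10 lower genes with the largest log2 difference, called in the same direction with and without the rat-number term, are given by position. Exon blocks are the merged exons of a gene in the deposited table. Neighbours are consecutive tested genes on a chromosome. No sequences are shown, since no table at hand ties them to these IDs.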

Additional observations from a re-analysis of the deposited data

Results flagged for a closer look

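In 28 measures, the 24 genes given above by ID or by rank of their difference and 4 library measures, the highest or the lowest rat of each group of 6 was compared with its nearest neighbour, giving 56 checks. A rat was singled out when that gap, as a share of the range of the group, exceeded Dixon's 95% critical value for 6 samples. In 8 of 56 checks a rat was singled out. Chance singles out about 1 in 20 groups of unselected, normally distributed values. Here 24 of the measures were chosen for their difference in these same libraries, so that rate does not apply and the 8 cannot be set against it. In 4 of the 8 the rat was ablation Rat95. It had 66.9 CPM of the chromosome 13 gene at 83570811, where the next ablation rat had 12.5 CPM. It had 49.7 CPM of the chromosome 11 gene at 69431260 (next 1.13 CPM), 23.9 CPM of the chromosome 18 gene at 75855878 (next 5.80 CPM) and 9.93 CPM of the chromosome 3 gene at 88889046 (next 2.84 CPM).

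Ablation Rat164 had 4.53 CPM of the lower gene on chromosome 10 at 14807710, where the next ablation rat had 1.71 CPM. Intact BAT Rat120 had 4.59 CPM of the chromosome 18 gene at 54364088, against 1.2 CPM in the next intact BAT rat. Both rats also lay nearest the other group over the called genes. The remaining pair were the rats above Rat168, in which genes of the Y chromosome took 134 CPM (intact BAT Rat196, next 76.0 CPM) and 109 CPM (ablation Rat186, next 70.1 CPM).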

How the results depend on the processing

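The number of genes called for ablation against intact BAT, 525 as designed, moved with the model, and so did its balance of 323 higher to 202 lower (624 to 671 with the term and a length gradient, 1473 to 1549 by limma-voom, 321 higher of 456 with upper-quartile scaling). Each of the 24 genes given by ID or position kept its sign in all 1056 combinations of gene and alternative. These genes were chosen by their p or difference in the same libraries, so a kept sign is no support. The call was not always kept. Of the 20 genes of largest difference, 12 kept it with the term and length gradient, 13 with upper-quartile scaling, 17 by limma-voom, 18 with a linear rat number and 11 with no filter. With no rat-number term, 0 kept it in the 12 libraries compared alone, without ablation Rat95 and Rat152, or without intact BAT Rat56 to Rat62. Scaling by DESeq2's size factors (513), by the upper quartile (456) or without mitochondrial genes (532), and a filter of 1 CPM in 6 libraries (635), left the count within 1.5 times. It was 3219 with the rat-number term, 2033 in rats below Rat168, 4042 with a linear rat number, 4424 with 1 surrogate variable, 1295 with the term and a length gradient, 1342 by DESeq2 and 3022 by limma-voom. It was 234 with no filter, 3 at an adjusted p below 0.01 and 1165 below 0.1. Leaving out 1 library gave 7 to 1037 as designed and 1652 to 4303 with the term.

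By edgeR, 0 genes were called in the 12 libraries compared, without the term (2344 at an unadjusted p below 0.05) and with it (4360), in their rats below Rat168 (4408), and without ablation Rat95 and Rat152 (1517). Without those 2 rats and with the term 398 were called. Without intact BAT Rat56 to Rat62, which left only Rat120 and Rat196 in that group, the count was 1, and 5 with the term. The cause of these moves was not tested. The fits without Rat95 and Rat152, without Rat56 to Rat62 and no term, and with low-numbered rats of the 2 groups alone were chosen after seeing the data.

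With the replicate number of the labels as a block the count was 1021. The numbers do not show pairing: the deviations of same-numbered rats of the 2 groups correlated at 0.192, 0.144, -0.0639, 0.115, -0.105 and 0.73 over genes, and replicate 6, which holds Rat186 and Rat196, was the pair in which a rat correlated best with its own number. Gene lists were not run, since IDs could not be paired with symbols.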
